A study of Bos taurus with 28 samples.

Results

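Messenger RNA of the mammary gland was compared between cows with lysine on both alleles of DGAT1 (KK, labelled K232K, 4 cows) and cows with alanine on both alleles (AA, labelled A232A, 11 cows). These 15 cows were taken from the 28 of the study by their genotype label alone. The other 13 cows, labelled A232K and called KA here, carried 1 allele of each kind and entered only the estimate of the spread. All cows were Holstein-Friesian, a dairy breed, in mid-lactation at 153 ± 32.8 days in milk as the labels state it, and were fed a mixed ration of silages and concentrates that the labels call a control diet. Tissue was taken by surgical biopsy, genotypes came from an allelic discrimination assay, and 1 Affymetrix bovine array was used for the RNA of each cow. The genotype was the cow's own and was not set by the experimenters, so whatever else differs between the cows is part of the comparison.

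DGAT1 encodes diacylglycerol O-acyltransferase 1, an enzyme of the endoplasmic reticulum that joins a fatty acyl group to diacylglycerol and so makes triacylglycerol, the main lipid of milk fat. The lysine and alanine forms of the enzyme are a classical example of a single gene with a large effect on milk composition in dairy cattle, and the lysine form goes with fatter milk. In the secretory epithelium triacylglycerol is packed into lipid droplets, which leave the cell as milk fat globules wrapped in membrane.

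Each value is the log2 signal of a probe set, a group of short probes for 1 transcript, relative to a baseline of that probe set. Only differences between cows can therefore be read, and 1 unit is a 2-fold difference. Of the 24016 probe sets tested, 13292 carried exactly 1 gene symbol, for 9155 genes. Precision is limited by the small number of arrays, and KK had 4. Of 11 luminal epithelial markers, 8 were in the brightest of 3 classes of signal, among them the milk protein genes CSN2, CSN3 and LALBA.

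Of the AA cows, AA 2 and AA 9 had unusual arrays. The SD over their probe sets reached 0.86 and 0.78, where the remaining 26 arrays had 0.21 to 0.35, and 4807 and 3699 of their probe sets lay beyond 2-fold of the baseline. Differences are given with all 11 AA cows and, where a second value follows, without these 2. All 4 KK arrays had titles numbered between 29 and 42, where 8 AA and 2 KA arrays also lay. The numbers 43 to 56 held 3 AA arrays, 11 KA arrays and no KK array, so a check was limited to the numbers 29 to 42, with AA 2 left out as well. In the GAPDH control probe sets the difference of the 3' end and the 5' end lay between -0.14 and 0.25 in the KK cows. It was 1.33 in AA 2, 0.97 in AA 11 and between -0.66 and -0.02 in the other AA cows. In the actin control probe sets the same difference was -0.14 in AA 2 and -0.28 in AA 11. Its highest AA values were 0.46 in AA 6 and 0.41 in AA 7, and the KK cows lay between -0.20 and 0.27. The part of these control differences in the results was not tested.

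No probe set passed an adjusted p of 0.05 between KK and AA (0 of 24016, limma with Benjamini-Hochberg adjustment). The smallest adjusted p was 0.909 with all arrays, 0.63 without AA 2 and AA 9, and 1.00 within the numbers 29 to 42 without AA 2. At an unadjusted p under 0.05 there were 842 probe sets, 3.51% of those tested, with 480 higher and 362 lower in KK. Without AA 2 and AA 9 there were 662, or 2.76%, and 400 of these were among the 842, each with the same sign. These counts moved with single cows: they fell to 407 without KK 1 and reached 1623 without AA 1 and 1319 without KK 3. Everything that follows describes values that did not pass the test across all probe sets. The adjusted p was 0.909 or higher for each gene named here with all arrays, and 0.63 or higher without AA 2 and AA 9.

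The size of the differences was small for most genes. The median absolute difference was 0.11 on the log2 scale over the 9155 genes, and 0.08 without AA 2 and AA 9. With all arrays 22 genes differed by more than 1 log2 unit, 10 higher and 12 lower in KK, and without AA 2 and AA 9 there were 9. KK was higher in 49% of genes with all arrays, in 52.5% without AA 2 and AA 9 and in 56.2% within the numbers 29 to 42 without AA 2. The plot of each gene's difference in both readings shows the named genes along its arms.

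**Figure D1:**
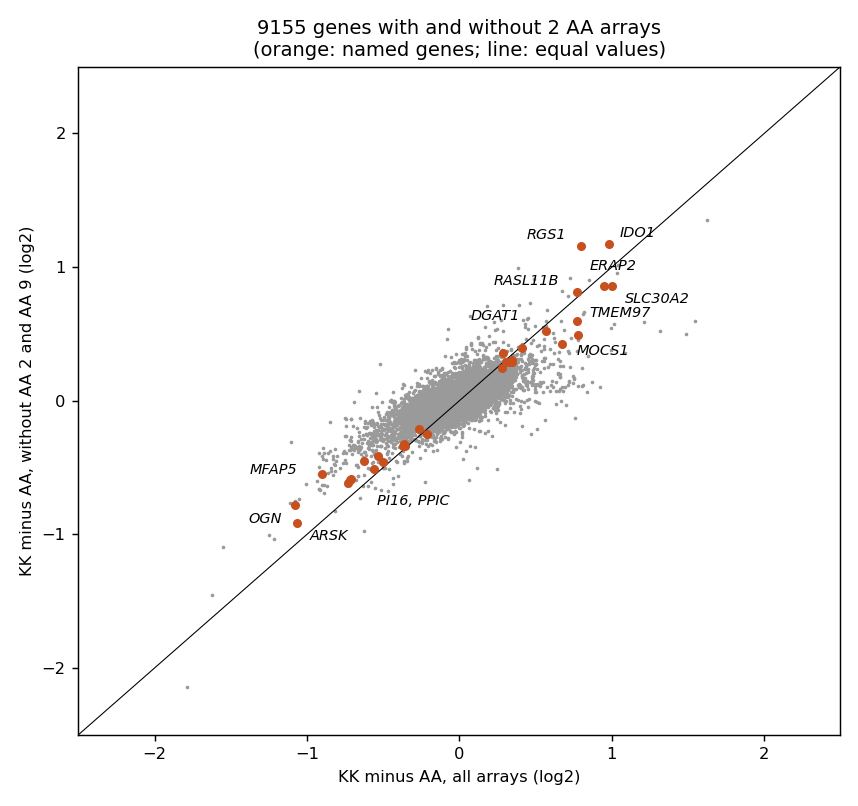
Difference KK minus AA (log2) of 9155 genes, with all 11 AA cows on the horizontal axis and without AA 2 and AA 9 on the vertical axis. Grey points are genes, orange points are the probe sets of the 31 named genes, and the line marks equal values. Many grey points lie nearer to 0 on the vertical axis than on the horizontal one, while RGS1 and IDO1 lie farther from it.

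DGAT1 itself was higher in KK. Its log2 values were 0.06, 0.68, 0.84 and 0.62 in KK 1 to KK 4, and ran in the AA cows from -0.76 in AA 2 over a median of 0.05 to 0.56 in AA 10. KK 2, KK 3 and KK 4 lay above every AA cow, whereas KK 1 lay among them, so the groups overlapped. The means were 0.55 ± 0.34 (SD, n = 4) and -0.02 ± 0.34 (SD, n = 11), a difference of 0.57 ± 0.17 (SE) or 1.49-fold. The exact two-sided permutation test of this single difference gave p = 0.0103 over 1365 regroupings of the cows, while the limma p adjusted over all probe sets was 0.909. Without AA 2 and AA 9 the difference was 0.52 (exact permutation p = 0.00839), and within the numbers 29 to 42 without AA 2 it was 0.61 (exact permutation p = 0.00909). DGAT1 was chosen as the gene that carries the genotype, and it ranked 15 among all probe sets by its limma p. The KA cows had a mean of 0.34, but most KA arrays had numbers from 43 to 56. The KA arrays numbered 29 to 42, KA 1 and KA 2, were at -0.06 and 0.26. In the numbers 43 to 56, AA 9, AA 10 and AA 11 were at 0.29, 0.56 and 0.12. The KA mean therefore mixes genotype with array number, and their parts in it were not tested.

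**Figure D2:**
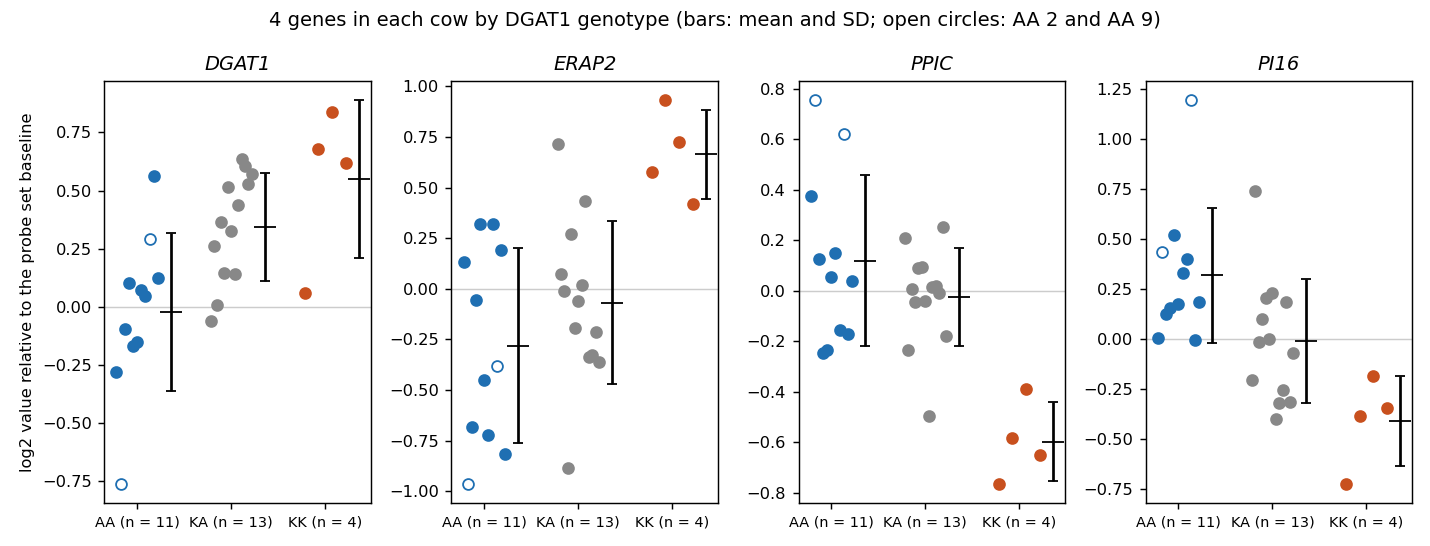
Log2 values of DGAT1, ERAP2, PPIC and PI16 in each cow, by genotype, with the mean and SD as bars and AA 2 and AA 9 as open circles. For ERAP2 the KK cows lie above all AA cows, for PPIC and PI16 below all of them, and for DGAT1 KK 1 at 0.06 lies among the AA cows.

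The genes that neighbour DGAT1 on its chromosome, in the gene order of RefSeq for ARS-UCD2.0, had no common direction. Of 52 listed neighbours 29 were measured, and their median difference was 0.05, with 18 higher in KK. Without AA 2 and AA 9 the median was 0.00 and 14 were higher. VPS28, a subunit of the ESCRT-I complex that sorts proteins into endosomes, lies 7 protein-coding genes away and was the neighbour with the smallest p. Its values were -0.29, -0.34, -0.05 and -0.11 in KK 1 to KK 4, against a range from -0.29 over a median of 0.16 to 0.77 in AA. KK 2 alone lay below all 11 AA cows. VPS28 differed by -0.36 ± 0.12 (SE), and by -0.34 ± 0.09 without AA 2 and AA 9. TONSL, a protein of replication fork repair, and CYHR1 differed by 0.17 ± 0.11 and 0.20 ± 0.12 with every cow, and by 0.09 ± 0.08 and 0.13 ± 0.11 without AA 2 and AA 9.

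The other enzymes of triacylglycerol synthesis stood near 0 once AA 2 and AA 9 were left out. The list of 15 measured genes had a median of 0.06 with all arrays and 0.01 without them, and DGAT1 was its only gene at an unadjusted p under 0.05 in either reading, where 3.67% and 2.74% of all genes lay. DGAT2, which catalyses the same reaction with an unrelated protein, was at 0.31, 0.11, -0.33 and 0.18 in KK 1 to KK 4 and differed by 0.23 ± 0.14 (SE), and by 0.20 ± 0.14 without AA 2 and AA 9. KK 3, the cow with the highest DGAT1 value, had the lowest DGAT2 value of the 4. GPAM, the mitochondrial acyltransferase of the first step, differed by 0.45 ± 0.30 with all arrays and by 0.08 ± 0.10 without AA 2 and AA 9, which were at -1.95 and -2.15 for this gene.

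Differences in the genes of milk fat also shrank when AA 2 and AA 9 were left out. The milk fat globule and lipid droplet list (15 genes) had a median of 0.42 with every cow and 0.05 without AA 2 and AA 9, and the list of fatty acid uptake and activation (17 genes) 0.33 and 0.13. CIDEA, a lipid droplet protein, was at -4.82 in AA 2 and -6.79 in AA 9, and its difference went from 1.48 ± 0.81 to 0.50 ± 0.25 without them. PLIN2, the coat protein of lipid droplets, went from 0.64 to 0.14 without these arrays. FABP3, a fatty acid carrier, went from 0.87 to 0.14, and ACSS2, which activates acetate for fat synthesis, from 1.00 to 0.38. Fatty acid synthesis and desaturation (16 genes) had medians of 0.09 and 0.02, with FASN, the fatty acid synthase, at 0.66 ± 0.41 and 0.17 ± 0.13, and SCD, the desaturase, at 0.57 ± 0.39 and 0.10 ± 0.09. No gene of the milk fat globule and fatty acid synthesis lists was at an unadjusted p under 0.05 in either reading. In the fatty acid uptake list SLC27A5, lower in KK, was at that p in both readings. ACSS2, higher in KK, was at that p only without AA 2 and AA 9. Of all genes 3.67% and 2.74% lay there.

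Milk protein and lactose genes lay near 0 without AA 2 and AA 9. The 17 measured genes had a median of 0.17 with all arrays and 0.00 without these 2. CSN2, the gene of beta-casein, was between -0.01 and 0.03 in the 4 KK cows and between -0.30 and 0.06 in the 9 AA cows. A further bright probe set of CSN2 differed by 0.47, and by 0.08 without AA 2 and AA 9. A dim one differed by -0.08 and -0.12 in these readings. LALBA, the gene of alpha-lactalbumin, differed by 0.26 ± 0.21 (SE) with all arrays and by 0.03 ± 0.07 without AA 2 and AA 9.

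Among lipid genes the cholesterol pathway kept the largest list median without AA 2 and AA 9. All 15 measured genes of cholesterol synthesis were higher in KK with all arrays, with a median of 0.36, and 8 of them were at an unadjusted p under 0.05 in that direction, where 1.82% of all genes lay. Without AA 2 and AA 9, 14 of 15 were higher and the median was 0.27, but 1 gene was at an unadjusted p under 0.05, where 1.54% of all genes lay. Within the numbers 29 to 42 without AA 2 the median was 0.18 and no gene was at that p, and 1.9% of all genes were. The members belong to 1 pathway and were measured in the same cows, so their number is not a number of independent observations.

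HMGCS1, which makes the HMG-CoA that the pathway starts from, was the cholesterol gene with the smallest p. Its values were 0.69, 0.76, 0.43 and -0.66 in KK 1 to KK 4, and ran in the 9 AA cows from -1.5 over -0.13 to 0.48. KK 1 and KK 2 lay above these 9 AA cows, and KK 4 lay below most of them. HMGCS1 differed by 0.81 ± 0.32 (SE) with all arrays, 0.65 ± 0.30 without AA 2 and AA 9, and its second probe set by 1.04 ± 0.40. CYP51A1 and MSMO1, which remove methyl groups from lanosterol and its products, differed by 0.47 ± 0.21 and 0.36 ± 0.16, and by 0.35 ± 0.19 and 0.25 ± 0.14 without AA 2 and AA 9. NSDHL and TM7SF2, also enzymes of the pathway, differed by 0.56 ± 0.25 and 0.59 ± 0.27, and by 0.32 ± 0.17 and 0.38 ± 0.22 without these arrays. With KK 2 left out as well, NSDHL was at 0.19 and TM7SF2 at 0.16. KK 4 was below 0 in each of these 4 genes while KK 1, KK 2 and KK 3 were above 0. Averaged over the list, KK 1 to KK 4 were at 0.25, 0.39, 0.15 and -0.20, and the 9 AA cows between -0.49 and 0.27, so the groups overlapped through KK 4 and AA 4.

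Of 19 measured regulators of lipid synthesis, 14 were higher in KK with every cow and 9 without AA 2 and AA 9, with medians of 0.08 and -0.01. INSIG1, a sterol sensor of the endoplasmic reticulum that holds back SREBP and is itself an SREBP target, was at 0.84, 0.91, 0.70 and -0.05 in KK 1 to KK 4. The 9 AA cows ran from -0.89 over 0.09 to 0.54, so that 3 of 4 KK cows lay above them. INSIG1 differed by 1.01 ± 0.42 (SE) with all arrays and by 0.57 ± 0.25 without AA 2 and AA 9. SREBF1, the gene of the transcription factor SREBP-1, was at 0.59, 0.80, 0.42 and 0.31 in KK and from -0.35 over 0.17 to 0.61 in the 9 AA cows, a difference of 0.62 ± 0.27 and, without AA 2 and AA 9, of 0.36 ± 0.19. Of its other 3 probe sets the differences were 0.79, 0.68 and 0.09. The 8 genes of sterol uptake and transport had medians of 0.10 and 0.00.

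TMEM97, a sterol-binding membrane protein that partners the cholesterol transporter NPC1, was a gene without overlap. The KK values were 0.38, 0.63, 0.53 and 0.29 and the AA values ran from -1.24 over -0.06 to 0.20, so every KK cow lay above every AA cow. TMEM97 differed by 0.77 ± 0.23 (SE), 1.71-fold, and by 0.60 ± 0.20 without AA 2 and AA 9, which held the lowest values.

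In all, 22 probe sets had all 4 KK cows above or all 4 below the 11 AA cows, which is 0.0916% of those tested, and 17 of these had 1 gene symbol, 9 above and 8 below. With the 9 AA cows alone the number was 38, or 0.158%. Among so many probe sets some lack overlap without any link to genotype, and the number expected by chance was not computed. A lack of overlap is therefore a description of the values and not a call. The largest gaps above belonged to MOCS1, CUX1, ERAP2, TMEM97, RNF123 and RDH13, and the largest gaps below to PI16, PPIC, MFAP5, SCRN3, LIX1L and SLC27A5. The values of these and the other named genes in each cow are shown together in a heat map.

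**Figure D3:**
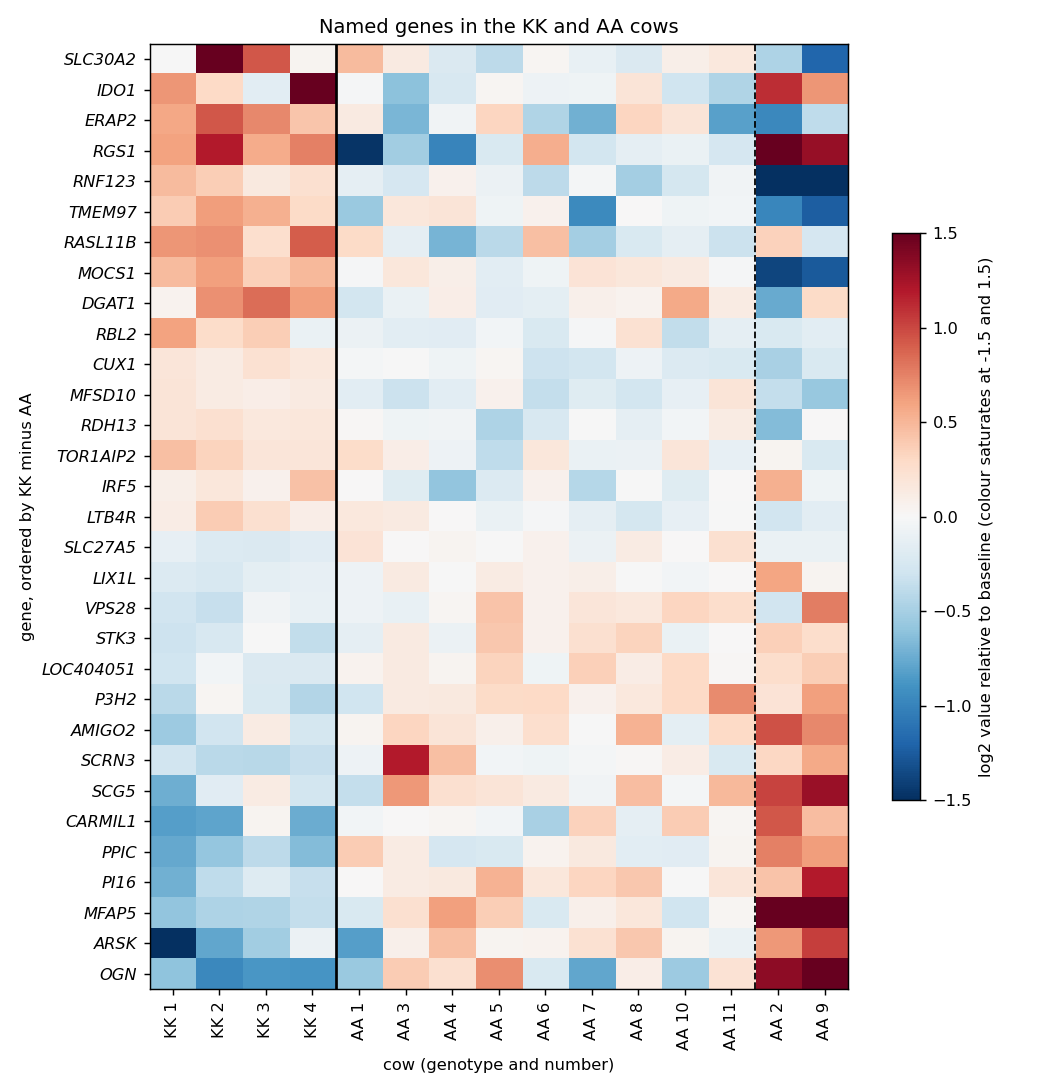
Log2 values of the 31 named genes (rows, ordered by KK minus AA) in the 4 KK cows, the 9 AA cows and, right of the dashed line, AA 2 and AA 9. Colour gives the log2 value relative to baseline and saturates at -1.5 and 1.5. IDO1 is high in KK 4 at 3.21 and SLC30A2 in KK 2 at 2.44, while ERAP2 is high in all 4 KK cows.

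ERAP2, an aminopeptidase of the endoplasmic reticulum that trims peptides for MHC class I, had the smallest p among genes higher in KK. It was at 0.58, 0.93, 0.73 and 0.42 in KK 1 to KK 4 and ran from -0.96 over -0.38 to 0.32 in the AA cows. All KK cows lay above all AA cows, and the AA cows themselves spread over more than 1 log2 unit. ERAP2 differed by 0.95 ± 0.23 (SE), 1.93-fold, by 0.86 ± 0.23 without AA 2 and AA 9, and by 0.83 within the numbers 29 to 42 without AA 2. The KA cows had a mean of -0.07. Its partner ERAP1 was at -0.45, -1.30, -1.40 and 0.79 in KK and differed by -0.63 ± 0.32, with the KK cows on both sides of the 9 AA cows. The ERAP1 difference was -0.63 ± 0.34 without AA 2 and AA 9, and ran from -1.09 without KK 4 to -0.36 without KK 3.

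The other genes of class I presentation showed no common direction. The list of 16 genes had a median of -0.05 with every cow and 0.07 without AA 2 and AA 9, so its sign turned with these arrays. ERAP2 was its only gene at an unadjusted p under 0.05 in either reading, where 3.67% and 2.74% of all genes lay. Averaged over the list, KK 4 was at 0.98 and KK 1 to KK 3 at -0.23, -0.13 and 0.18, against -0.54 to 0.56 in the 9 AA cows.

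The matrix genes made by fibroblasts were lower in KK. Of 25 measured genes 21 were lower with all arrays, with a median of -0.64, and 12 were at an unadjusted p under 0.05 in that direction, where 1.85% of all genes lay. Without AA 2 and AA 9, 23 were lower, the median was -0.35 and 7 were at that p, where 1.2% of all genes lay. Within the numbers 29 to 42 without AA 2 the median was -0.35 and 5 were at that p, against 1.27% of all genes. In a biopsy, fewer fibroblasts and less RNA per fibroblast cannot be told apart. Of 8 fibroblast markers 7 were lower in both readings. The other, PDGFRA, differed by 0.15 ± 0.18 (SE), and by 0.01 ± 0.14 without AA 2 and AA 9. Averaged over the 25 genes of the whole list, KK 1 to KK 4 were at -0.55, -0.38, 0.04 and -0.18. The AA cows ran from -0.47 in AA 1 over AA 2 at 0.89 to AA 9 at 1.47, and AA 1 lay below 3 of the 4 KK cows. Leaving out KK 1 as well as AA 2 and AA 9 brought the median to -0.24.

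PI16, a peptidase inhibitor that marks a widespread class of fibroblasts, was at -0.73, -0.39, -0.19 and -0.34 in KK and ran from -0.01 over 0.18 to 1.20 in AA. Every KK cow lay below every AA cow, with the widest gap of any gene lower in KK. It differed by -0.73 ± 0.18 (SE), 1.66-fold, and by -0.62 ± 0.15 without AA 2 and AA 9. MFAP5, a protein of elastic microfibrils, was at -0.59, -0.46, -0.46 and -0.35 in KK and ran from -0.30 over 0.17 to 2.32 in AA. It did not overlap either, and its difference went from -0.90 ± 0.31 to -0.55 ± 0.15 without AA 9 at 2.32 and AA 2 at 1.70.

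OGN, a small proteoglycan of the matrix, was at -0.60, -0.97, -0.87 and -0.89 in KK, against -0.78 over 0.21 to 1.83 in AA. KK 2, KK 3 and KK 4 lay below every AA cow and KK 1 below all but AA 7. OGN differed by -1.08 ± 0.31 (SE), 2.11-fold, and by -0.78 ± 0.22 without AA 2 and AA 9. ASPN, a proteoglycan of the same family, differed by -1.11 ± 0.35 and -0.77 ± 0.23, and DPT, which helps collagen fibrils form, by -1.08 ± 0.36 and -0.75 ± 0.27. For DPT the lowest of the AA cows, AA 1 at -0.99, lay near the lowest KK cow, KK 1 at -1.04.

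Enzymes that modify and crosslink collagen had smaller differences. Of 22 measured genes 15 were lower with every cow and 18 without AA 2 and AA 9, with medians of -0.15 and -0.10, and 5 and then 3 were at an unadjusted p under 0.05 in that direction, where 1.85% and 1.2% of all genes lay. P3H2, a prolyl 3-hydroxylase, was at -0.40, 0.03, -0.23 and -0.44 in KK, against -0.30 over 0.21 to 0.71 in AA. KK 1 and KK 4 lay below every AA cow, while KK 2 lay among them. P3H2 differed by -0.50 ± 0.12 (SE) and by -0.46 ± 0.12 without AA 2 and AA 9. LOX, which oxidises lysines for crosslinks, differed by -0.39 ± 0.14 and -0.25 ± 0.10. PCOLCE2, an enhancer of procollagen cleavage, differed by -0.78 ± 0.32 and -0.51 ± 0.24.

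PPIC, cyclophilin C, a prolyl isomerase of the secretory pathway, had the smallest p of all named genes. It was at -0.76, -0.58, -0.39 and -0.65 in KK 1 to KK 4 and ran from -0.25 over 0.06 to 0.75 in AA. Every KK cow lay below every AA cow. PPIC differed by -0.72 ± 0.15 (SE), 1.64-fold, by -0.59 ± 0.12 without AA 2 and AA 9, where its adjusted limma p was 0.63, and by -0.61 within the numbers 29 to 42 without AA 2. Its second probe set, in the dimmest class, differed by -0.09 ± 0.11. Leaving out any single KK cow kept the difference of the first probe set between -0.79 and -0.66.

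Contractile genes of myoepithelium and smooth muscle, the cells that squeeze milk from the alveoli and line vessels, were also lower in KK, though not in KK 3. All 15 measured genes were lower with every cow and 13 without AA 2 and AA 9, with medians of -0.38 and -0.26, and 5 and then 2 were at an unadjusted p under 0.05 in that direction, where 1.85% and 1.2% of all genes lay. Within the numbers 29 to 42 none was at that p, and without AA 2 there 1 was, against 1.27% of all genes, with a median of -0.28. Averaged over the list, KK 1, KK 2 and KK 4 were at -0.35, -0.31 and -0.32 and KK 3 at 0.33, against -0.58 to 0.56 in the 9 AA cows, so the groups overlapped. CNN1, a calponin of smooth muscle, was at -0.22, -0.42, 0.45 and -1.27 in KK and differed by -0.58 ± 0.23 (SE), and by -0.61 ± 0.24 without AA 2 and AA 9. The CNN1 difference was -0.28 without KK 4 and -0.85 without KK 3. KRT5, a keratin of basal cells, differed by -0.67 ± 0.27 and -0.48 ± 0.23. MYH11, the smooth muscle myosin, was at -0.49, -0.57, 0.46 and -0.49 in KK and differed by -0.57 ± 0.24 and -0.46 ± 0.23. Luminal epithelium (16 genes) had medians of -0.11 and -0.07.

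**Figure D4:**
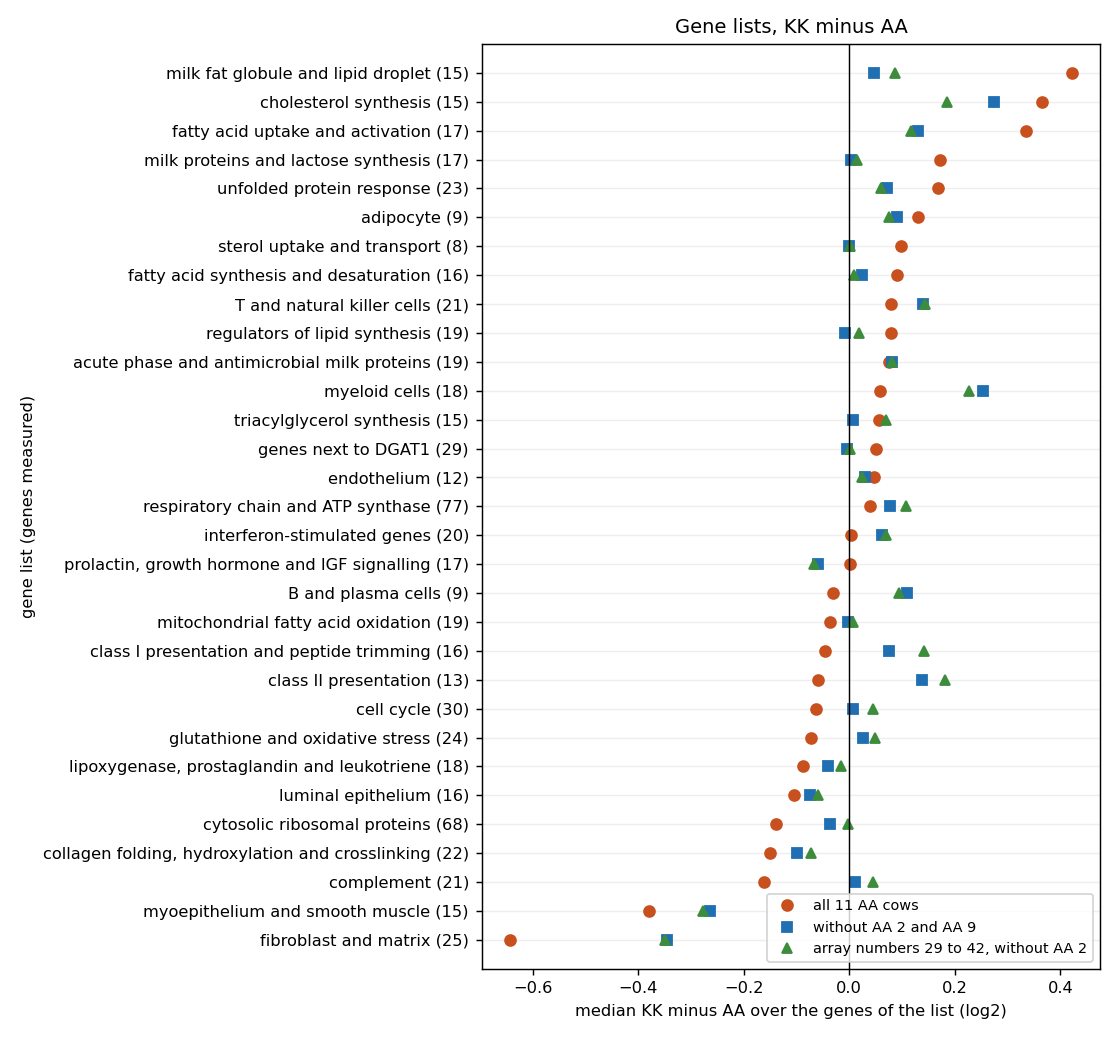
Median difference KK minus AA (log2) over the measured genes of each of 31 gene lists, with all 11 AA cows (circles), without AA 2 and AA 9 (squares) and within the array numbers 29 to 42 without AA 2 (triangles). The fibroblast and matrix list is lowest at -0.64 and -0.35, and the milk fat globule list goes from 0.42 to 0.05.

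The medians of the immune lists moved with AA 2, AA 9 and KK 4, and KK 4 was the highest KK cow in each list named here. The myeloid list (18 genes) had a median of 0.06 with every cow and 0.25 without AA 2 and AA 9, which were at 0.91 and 1.19 on average. Its mean was 1.03 in KK 4 and 0.02, -0.08 and -0.03 in KK 1 to KK 3, against -0.43 to 0.23 in the 9 AA cows. Leaving out KK 4 too brought the median to 0.05. Class II presentation (13 genes) had medians of -0.06 and 0.14, B and plasma cells (9 genes) -0.03 and 0.11, and complement (21 genes) -0.16, with 14 lower, and 0.01, so the sign of these 3 lists turned with AA 2 and AA 9. T and natural killer cells (21 genes) had medians of 0.08 and 0.14, and interferon-stimulated genes (20 genes) 0.00 and 0.06. With KK 4 alone left out all these medians were below 0, at -0.21 for myeloid cells, -0.27 for class II, -0.29 for B and plasma cells, -0.43 for complement, -0.08 for T and natural killer cells and -0.15 for interferon-stimulated genes. The class I median was then -0.25. With AA 2, AA 9 and KK 4 left out, class II was at -0.04, B and plasma cells at -0.06, complement at -0.13, T and natural killer cells at 0.06, interferon-stimulated genes at -0.04 and class I at -0.07.

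**Figure D5:**
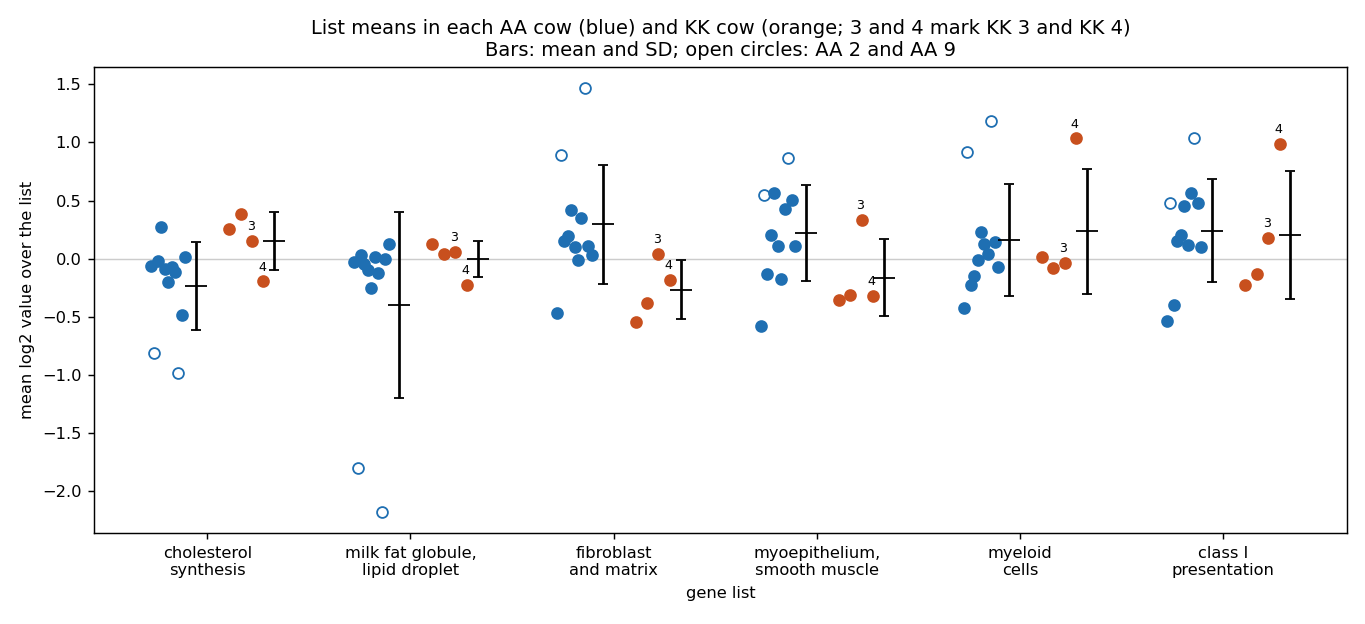
Mean log2 value over the genes of 6 lists in each AA cow (blue) and KK cow (orange), with the mean and SD of each group as bars. AA 2 and AA 9 are open circles; in the myeloid list KK 4 is at 1.03 and the other KK cows lie between -0.08 and 0.02.

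Several single immune genes were named from the reading without AA 2 and AA 9. IDO1, which breaks down tryptophan and is induced by interferon, was at 0.66, 0.30, -0.16 and 3.21 in KK, against -0.61 over -0.06 to 1.11 in AA. KK 4 stood far above the others, and without KK 4 the difference with all AA arrays went from 0.98 to 0.25. The IDO1 difference without AA 2 and AA 9 was 1.17 ± 0.35, and 0.44 with KK 4 left out as well. RGS1, a regulator of G protein signalling in lymphocytes, was at 0.60, 1.19, 0.56 and 0.76 in KK. The 9 AA cows ran from -1.47 to 0.54, below all KK cows, whereas AA 2 and AA 9 were at 1.92 and 1.31, above them all. RGS1 differed by 0.80 ± 0.43 (SE) with all arrays and by 1.16 ± 0.34 without these 2. IRF5, a transcription factor of interferon responses, was at 0.08, 0.17, 0.07 and 0.44 in KK, above the 9 AA cows but below AA 2 at 0.54, and differed by 0.29 ± 0.12 and 0.36 ± 0.10. MS4A1, the CD20 gene of B cells, was named as a list member instead. It differed by 0.40 ± 0.14 and 0.35 ± 0.14, with KK 4 highest at 1.03. Without KK 4 the MS4A1 difference was 0.18, and 0.12 with AA 2 and AA 9 also left out.

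Genes of lipid mediators included LTB4R, the receptor of leukotriene B4, at 0.11, 0.38, 0.24 and 0.10 in KK against -0.29 over -0.10 to 0.16 in AA. KK 2 and KK 3 lay above every AA cow. LTB4R differed by 0.28 ± 0.08 (SE) and by 0.25 ± 0.08 without AA 2 and AA 9. HPGD, which inactivates prostaglandins, was at 1.26, 1.22, -0.64 and 0.33 in KK and from -1.70 over -0.51 to 0.95 in the 9 AA cows, a difference of 1.04 ± 0.44. HPGD stayed at 1.01 ± 0.44 without AA 2 and AA 9, and its second probe set differed by 1.21. The list of 18 genes had medians of -0.09 and -0.04.

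The remaining genes higher in KK had varied roles. MOCS1, an enzyme of molybdenum cofactor synthesis, was at 0.47, 0.62, 0.36 and 0.48 in KK and from -1.37 over -0.02 to 0.21 in AA. It had the widest gap of the genes above, and differed by 0.68 ± 0.24 (SE) and by 0.43 ± 0.14 without AA 2 and AA 9. RNF123, a ubiquitin ligase, differed by 0.78 ± 0.28 and 0.49 ± 0.18 without overlap, but its other probe sets differed by 0.06 and 0.09. CUX1, a homeodomain transcription factor, was at 0.19, 0.13, 0.23 and 0.16 in KK and from -0.48 over -0.21 to 0.02 in AA, without overlap. CUX1 differed by 0.35 ± 0.11 and 0.31 ± 0.11, while its other probe sets differed by 0.09 and -0.07. RDH13, a retinol dehydrogenase, differed by 0.33 ± 0.13 and 0.29 ± 0.12, with the 4 KK cows between 0.16 and 0.24.

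SLC30A2, a zinc transporter that loads zinc into milk, was at -0.01, 2.44, 0.93 and 0.04 in KK, against -1.19 over -0.11 to 0.47 in AA. KK 2 and KK 3 lay above every AA cow and the other KK cows among them. SLC30A2 differed by 1.00 ± 0.32 (SE), and by 0.85 ± 0.30 without AA 2 and AA 9. The SLC30A2 difference was 0.47 with KK 2 left out, and 0.33 with AA 2 and AA 9 left out as well. RASL11B, a small GTPase, was at 0.67, 0.68, 0.25 and 0.91 in KK against -0.69 to 0.45 in AA, and differed by 0.77 ± 0.22 and 0.81 ± 0.22. MFSD10, a membrane transporter, differed by 0.34 ± 0.10 and 0.29 ± 0.09, with KK between 0.11 and 0.19 and AA 11 above them at 0.20. RBL2, a member of the retinoblastoma family, differed by 0.41 ± 0.12 and 0.40 ± 0.12. Its other probe sets, both in the brightest class, differed by -0.18 and 0.02. TOR1AIP2, a cofactor of torsin, differed by 0.31 ± 0.10 and 0.29 ± 0.10, but its other probe set, in the brightest class, by -0.09.

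Among the other genes lower in KK, ARSK, a lysosomal sulfatase, was at -2.13, -0.78, -0.52 and -0.09 in KK, against -0.83 over 0.07 to 1.04 in AA. KK 1 alone lay below every AA cow, and the difference of -1.06 ± 0.31 (SE) was -0.65 without it. The ARSK difference without AA 2 and AA 9 was -0.92 ± 0.30, and -0.50 with KK 1 left out as well. CARMIL1, a regulator of actin capping, was at -0.82, -0.79, 0.05 and -0.74 in KK and from -0.49 over 0.02 to 0.93 in AA. All KK cows but KK 3 lay below every AA cow, and CARMIL1 differed by -0.71 ± 0.21 and -0.59 ± 0.20. AMIGO2, an adhesion protein, differed by -0.54 ± 0.16, and by -0.42 ± 0.13 without AA 2 and AA 9. SCG5, a chaperone of prohormone convertase, differed by -0.63 ± 0.20 and -0.45 ± 0.15 in these readings, and STK3, a kinase of the Hippo pathway, by -0.36 ± 0.11 and -0.32 ± 0.11. The second probe set of STK3 was at -0.03. LOC404051 differed by -0.37 ± 0.09 and -0.34 ± 0.09, but its other probe sets by 0.13 and 0.05.

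SCRN3, LIX1L and SLC27A5 lay lower in all 4 KK cows than in any AA cow, with gaps of 0.06, 0.05 and 0.03. SLC27A5, a bile acid and fatty acid CoA ligase of the liver, was in the dimmest class and differed by -0.22 ± 0.08 (SE), and by -0.25 ± 0.08 without AA 2 and AA 9. LIX1L differed by -0.26 ± 0.10 and -0.21 ± 0.08, and its other probe set by -0.20 with every cow. SCRN3 differed by -0.56 ± 0.26 and -0.51 ± 0.27, with AA 3 at 1.19.

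The 77 genes of the respiratory chain and ATP synthase had a median of 0.04 with every cow, with 53 higher in KK. Without AA 2 and AA 9 the median was 0.08, with 64 higher. In either reading 1 gene was at an unadjusted p under 0.05 in that direction, where 1.82% and 1.54% of all genes lay. Averaged over the list, KK 1 to KK 4 were at 0.13, 0.02, -0.21 and -0.13, against -0.24 to 0.15 in the 9 AA cows. Members of a list were measured in the same cows, so their number is not a number of independent observations. NDUFS8, a subunit of complex I, differed by 0.31 ± 0.16 (SE) with every cow and by 0.17 ± 0.10 without AA 2 and AA 9. SDHA, the catalytic subunit of complex II, differed by 0.27 ± 0.11 and 0.19 ± 0.10. The 68 cytosolic ribosomal protein genes had medians of -0.14 and -0.04, with 65 and 53 genes lower in KK. Within the numbers 29 to 42 without AA 2 the ribosomal median was 0.00, with 37 lower and 31 higher. The 23 genes of the unfolded protein response had medians of 0.17 and 0.07, and mitochondrial fatty acid oxidation (19 genes) -0.04 and 0.00. Cell cycle genes (30 genes) had medians of -0.06 and 0.01, glutathione and oxidative stress genes (24 genes) -0.07 and 0.03, and prolactin, growth hormone and IGF signalling genes (17 genes) 0.00 and -0.06. The signs of the cell cycle and glutathione medians turned with AA 2 and AA 9. Over all 9155 genes the medians were 0.00 and 0.01.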

How the data were processed

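RNA of 28 mammary biopsies was measured on 1-colour Affymetrix arrays, 1 per cow. The authors deposited 1 log2 value for each probe set and array. They worked with Bioconductor 2.7 in R 2.13, per the labels' protocols, and the submitters' processing notes name RMA and GCRMA, without saying which gave these values. The values lie around 0, so a baseline per probe set was subtracted, a step not given in the sources used here. Absolute levels are lost, and a class of brightness was read from the rounding steps of the values instead (3883 bright, 13913 intermediate, 6220 dim).

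The 112 control probe sets were left out. Gene symbols came from the platform annotation, updated through RefSeq gene identifiers of ARS-UCD2.0 (13263 of 13292). Each gene was represented by 1 probe set, of the brightest class, then of the plainest type, then by identifier. A named gene was given by the probe set that the rule chose. The functions lmFit and eBayes of limma 3.58.1 (R 4.3.3) were run on all 28 arrays with 1 mean per genotype, the contrast KK minus AA and Benjamini-Hochberg adjustment over 24016 probe sets. The scripts were tested on simulated data. The exact permutation p of DGAT1 is the share of regroupings with a difference in means at least as large in size.

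Named genes were the 10 higher and 10 lower genes with the smallest p, the 6 each way with the smallest p without AA 2 and AA 9, up to 6 each way without overlap, DGAT1, and at most 5 members of each list with the smallest p. The genotypes compared, the gene lists and the members were chosen with earlier results of these data known. Which list members are named was reduced after their changes of sign between alternatives were seen. As alternatives, arrays were weighted, quantile-normalized or centred, and others were a trend with robust variances, leaving out dim probe sets, a term for array numbers up to 42 and above, only the array numbers 29 to 42, only KK and AA arrays, the mean over the probe sets of each gene, a threshold of 0.10, and leaving out each array in turn. The trend alternative uses the mean of values without levels, which is not an intensity. Sequences were not used here.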

Additional observations from a re-analysis of the deposited data

Results flagged for a closer look

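In 9 of 110 results tested, the highest or the lowest of the 4 KK cows lay so far from the other 3 that its gap passed the critical value of Dixon's test for groups of 4. Chance gives about 1 in 20 such groups. KK 3 was the one apart in 4 of them: its value was 0.70 for ACSS1, 0.046 for CARMIL1 (the other KK cows between -0.82 and -0.74), 0.46 for MYH11 and 0.33 for the mean of the myoepithelium and smooth muscle list. KK 4 was the one apart in another 4, with -0.66 for CIDEA, 1.03 for the mean of the myeloid list, 0.60 for the mean of the interferon-stimulated genes and 0.12 for the mean of the glutathione and oxidative stress list. KK 2 was apart for GCLM, the modifier subunit of the first enzyme of glutathione synthesis, at -0.38.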

How the results depend on the processing

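The count of probe sets past an adjusted p of 0.05 was 0 under every alternative run. A threshold of 0.10 was applied only to the fit of the deposited values on all arrays, and the count there was also 0. The smallest adjusted limma p was 0.0542, under 0.10, with quantile normalization. There 1219 probe sets had an unadjusted p under 0.05 against 842. DGAT1 stayed higher in KK, from 0.43 to 0.73 when single arrays were left out and from 0.52 to 0.70 otherwise, with an adjusted limma p of 0.68 or more. All 78 other named genes kept their sign in 2334 values. The list members named were reduced after their changes of sign were seen, so the lack of such changes follows from that choice. With 5 members of every list, 175 genes in all, 98 of 5236 values had the opposite sign, in 36 genes. A list median counted as moved when it changed by more than the smaller SD of its mean among KK or AA cows, which was the case for 88 of 961 values. The pooled SD, which AA 2 and AA 9 widen and which was tried after the data were seen, gave 0.

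Without AA 2 and AA 9, with or without the KA arrays, the medians that moved were -0.00048 for sterol uptake and transport, 0.0062 for triacylglycerol synthesis, 0.046 for milk fat globule, 0.13 for fatty acid uptake, 0.0032 for milk proteins, -0.35 for fibroblast and matrix, 0.026 for glutathione and -0.037 for ribosomal proteins. Within the array numbers 29 to 42 they were 0.14 for triacylglycerol synthesis, 0.24 for fatty acid uptake, 0.079 for milk proteins and -0.062 for ribosomal proteins. There, without AA 2, they were 0.00084 for sterol uptake, 0.087 for milk fat globule, 0.12 for fatty acid uptake, 0.014 for milk proteins, -0.35 for fibroblast and matrix, 0.048 for glutathione and -0.0033 for ribosomal proteins. Array weights gave 0.0010 for sterol uptake, 0.068 for milk fat globule, 0.15 for fatty acid uptake, 0.029 for milk proteins and 0.036 for glutathione. Quantile normalization gave 0.20 for both fatty acid uptake and milk fat globule and 0.074 for milk proteins. A term for array number gave 0.11 for triacylglycerol synthesis and 0.12 for milk proteins, and centring gave 0.16 for milk proteins. Without dim probe sets the medians were 0.13 for triacylglycerol synthesis, 0.45 for fatty acid uptake and 0.38 for adipocyte genes. The cause of these changes was not tested.

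Leaving out single cows, also beside AA 2 and AA 9, gave ranges of -0.019 to 0.14 for sterol uptake, -0.041 to 0.11 for lipid regulators, -0.0078 to 0.10 for triacylglycerol synthesis, 0.015 to 0.48 for milk fat globule, 0.093 to 0.40 for fatty acid uptake, -0.0042 to 0.20 for milk proteins, -0.093 to 0.043 for fatty acid oxidation, -0.77 to -0.24 for fibroblast and matrix, -0.15 to 0.013 for lipid mediators, 0.021 to 0.21 for the unfolded protein response, -0.10 to 0.020 for glutathione, -0.034 to 0.065 for the neighbours of DGAT1 and -0.18 to -0.0019 for ribosomal proteins. The cholesterol median stayed between 0.18 and 0.50 and the myoepithelium median between -0.53 and -0.19 under these. No paired analysis was possible because the labels give the genotypes no shared replicate numbers. With 4 KK cows, and with signal over background lost from the values, small differences and dim genes are not resolved.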
